A study of Mus musculus with 2 samples.

Results

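The transforming growth factor beta (TGF-beta), bone morphogenetic protein (BMP) and activin signaling genes were read in 2 lines of immortal mouse embryonic fibroblasts, connective tissue cells of the embryo grown in culture. Members were chosen by gene symbol alone: the Tgfb, Bmp, Smad, Acvr, Inhb, Ltbp1 to Ltbp4 and Id1 to Id4 names, with Fst, Fstl1, Fstl3, Grem1 and Nog. This gave 55 of the 22711 genes listed for both lines. Both lines were hybrids of the mouse strains C57BL/6N (B6) and PWK/PhJ (PWK), with no treatment named. In the line B6-Xi, whose strain label reads PWK/PhJ X C57BL/6N, the B6 copy of the X chromosome is the inactive one. In the line PWK-Xi, labelled C57BL/6N X PWK/PhJ, it is the PWK copy. There was 1 polyA RNA library per line, made with Smart-seq2, so a difference between the lines has no replicate check, no test and no p-value, and the genetic background, the clone and the library cannot be told apart. The sources used here do not say whether either line is a single clone.

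Ligands of this family are secreted dimers that bring together type I and type II receptor kinases at the cell surface. Type I receptors phosphorylate receptor Smads, which join Smad4 and act on target genes in the nucleus. TGF-beta and activin act mainly through Smad2 and Smad3, and BMPs through Smad1, Smad5 and Smad9, whose classical targets are the Id genes. In fibroblasts TGF-beta is held latent in the matrix by binding proteins and is known for driving collagen and contractile gene expression, while antagonists such as gremlin and follistatin trap BMPs and activins outside the cell.

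Values are FPKM, fragment counts normalized to the length of the transcript and the size of the library, given separately for the B6 and the PWK allele. The total of a gene is the sum of its alleles, and the B6 share is the B6 part of that total. Of the 11 fibroblast markers, 9 in B6-Xi and 10 in PWK-Xi reached 1 FPKM, while the defining fibroblast gene Vim was listed at 0 in both lines, so a 0 in these files can be a value that was not estimated. All 11 summed to 13332 FPKM in B6-Xi but to 2979 FPKM in PWK-Xi, and without S100a4 the order turned, with 326 against 658 FPKM. The summed markers of epithelial, endothelial and immune cells lay between 0.0476 and 6.14 FPKM in either line, and those of skeletal muscle came to 0 and 2.12 FPKM. Embryonic stem cell markers summed to 0 in B6-Xi but to 18.2 FPKM in PWK-Xi, of which Pou5f1 held 15.1. The part of these marker differences in the results below was not tested. The low end of the values was coarser in B6-Xi. Over genes with 1 annotated transcript, the first percentile of FPKM times transcript length in kb came to 0.246 in B6-Xi against 0.0318 in PWK-Xi, which is 7.75 times apart.

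The Id genes and the antagonist Grem1 dominated the family in both lines, and few ligands reached 1 FPKM. Of the 55 members, 32 reached 1 FPKM in B6-Xi (58.2%, against 35.7% of all listed genes) and 34 in PWK-Xi (61.8%, against 39.8%). The same 32 were above 1 FPKM in both lines, and Acvr2b and Tgfbr1 were added in PWK-Xi. Another 9 members were listed at 0 in both lines: Acvr1c, Acvrl1, Bmp10, Bmp15, Bmp4, Bmp5, Id4, Inhbc and Tgfb2. In B6-Xi alone 11 more were at 0, and in PWK-Xi alone 0 were. Members at 0 made up 36.4% in B6-Xi (against 55.4% of all listed genes) and 16.4% in PWK-Xi (against 43.2%). These 11 had at most 0.851 FPKM in PWK-Xi, and the lowest member value above 0 was 0.328 FPKM in B6-Xi (Acvr2b) and 0.0309 FPKM in PWK-Xi (Bmp8b), so a 0 in B6-Xi does not show that the transcript was absent there. Bmp15, an oocyte growth factor gene, was the only X-linked member, so no member bears on the inactive X.

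**Figure D1:**
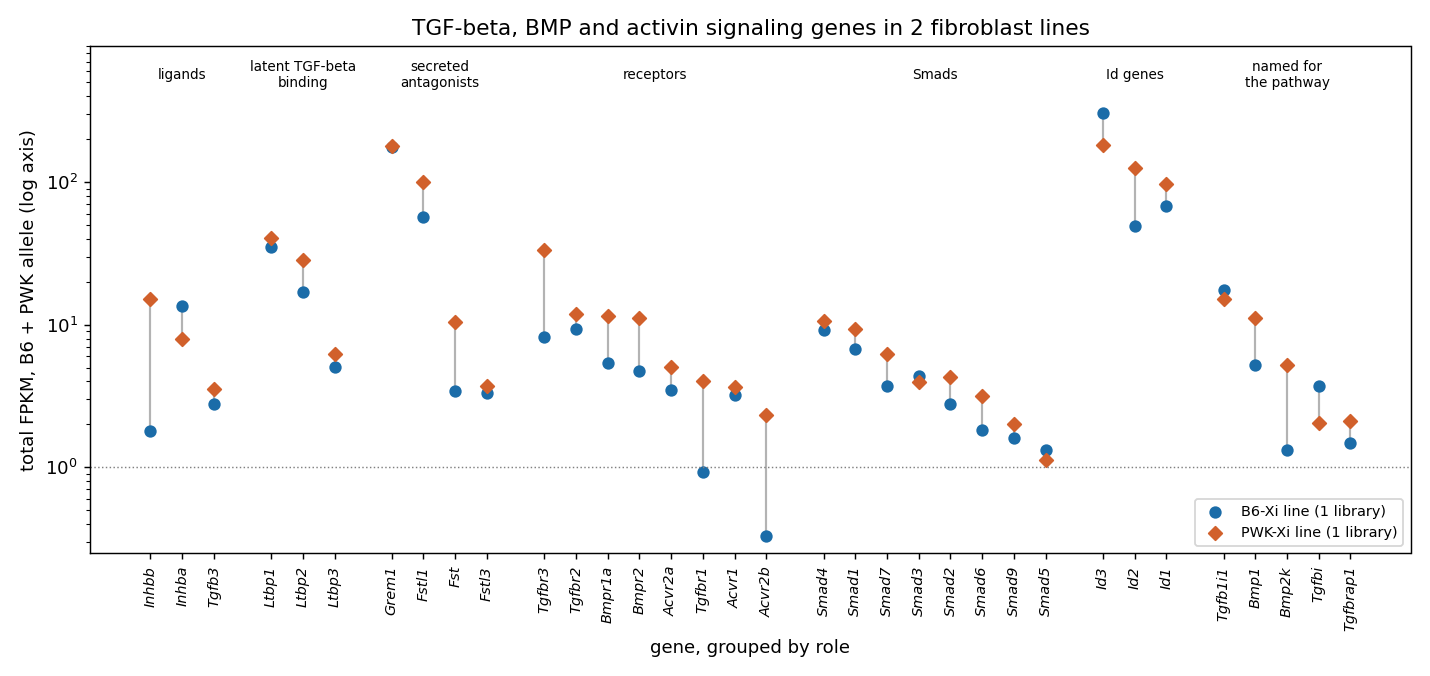
Total FPKM (log axis) of the 34 members with at least 1 FPKM in either line, grouped by role, with circles for B6-Xi and diamonds for PWK-Xi, 1 library each. Id3 and Grem1 stand highest in both lines, and Inhbb and Tgfbr3 show the widest gaps among members with at least 5 FPKM.

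Totals of the family were more often higher in PWK-Xi than in B6-Xi. In such bulk RNA, fewer cells with a transcript and less of it per cell cannot be told apart. The difference was read as log2((PWK-Xi + 1)/(B6-Xi + 1)) for the 22 members that reached 5 FPKM in a line, a scale that understates changes of low genes. Of these, 19 were higher in PWK-Xi (86.4%, against 62.1% of all 5490 genes with at least 5 FPKM) and 3 lower (13.6%, against 37.9%), and the median log2 difference was 0.57, against 0.23 over all those genes. For 6 of the 19, Acvr2a, Bmp2k, Bmpr2, Fst, Inhbb and Smad7, the minimum was reached in PWK-Xi alone, which fixed their direction (27.3% of the 22, against 20.1% of all genes). It was reached in B6-Xi alone by 0 members, against 7.74% of all genes. At least 2-fold higher in PWK-Xi were 6 of the 22 members (27.3%, against 17.8% of all genes): Inhbb, Tgfbr3, Bmp2k, Fst, Id2 and Bmpr2. Only Id2 and Tgfbr3 of these had 5 FPKM in both lines. Among the 16 members with 5 FPKM in both lines they make up 12.5%, against 7.98% of such genes, and 13 of the 16 were higher in PWK-Xi (81.2%, against 58.2%). Of these 16, 0 were 2-fold lower, against 4.19%. At least 2-fold lower were 0 of the 22, where 5.83% of all genes were. At 4-fold, 1 member was higher (Inhbb, 4.55% against 7.05% of all genes) and 0 were lower, against 1.33%. All 22 were above 0 in both lines. Centred on the median of the 5241 of these genes above 0 in both lines, a shift of 0.19, 17 members were higher and 5 lower, and Ltbp1 stood near the line at 0.01. With a pseudocount of 5 in place of 1, the number at least 2-fold higher was 3, and the 4-fold call of Inhbb ended. No share over all genes stands beside the centred counts or those with a pseudocount of 5.

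Among the ligands, 3 of 17 reached 1 FPKM, and the activin subunit genes were the main ones. Inhba, which encodes the beta A chain of activin A, had 13.6 FPKM in B6-Xi against 7.94 FPKM in PWK-Xi. Inhbb, which encodes the beta B chain of activin B, had 1.81 FPKM in B6-Xi against 15.2 FPKM in PWK-Xi. The pair was thus ordered oppositely in the lines, Inhba being the higher in B6-Xi and Inhbb in PWK-Xi. Inhba was 1.71-fold higher in B6-Xi (log2 difference -0.71), and Inhbb was 8.37-fold higher in PWK-Xi (log2 difference 2.52), the largest difference of the 22 members. For both genes the alleles moved the same way. The B6 and PWK alleles of Inhba had 7.26 and 6.35 FPKM in B6-Xi and 5.14 and 2.80 FPKM in PWK-Xi. Those of Inhbb had 1.51 and 0.302 FPKM in B6-Xi and 11.05 and 4.11 FPKM in PWK-Xi. The values of Inhbb in B6-Xi were low, where that line is coarse, so its fold is known only coarsely.

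Of the TGF-beta ligand genes, only Tgfb3 reached 1 FPKM. It had 2.77 FPKM in B6-Xi against 3.56 FPKM in PWK-Xi. Tgfb1, the isoform best known in wound repair and fibrosis, was listed at 0 in B6-Xi but at 0.851 FPKM in PWK-Xi, and Tgfb2 was listed at 0 in both. Of the 10 BMP ligand genes, none reached 1 FPKM in either line, and Bmp2 was the highest with 0.549 FPKM in PWK-Xi. Inhbe had 0.261 FPKM in PWK-Xi.

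The windows upstream of the start sites of Inhba, Inhbb and Grem1 are shown because the activin pair moved oppositely and Grem1 was the most abundant extracellular member. Each holds the 250 bases before the annotated start of transcription, read 5′ to 3′ on the gene's strand, from RefSeq on GRCm38.p6, where 41 of the 55 members had a window. That build is later than the mm9 of the files, and the reference is of the strain C57BL/6J. Capitals mark letters of GGCGCC, a GC-rich element bound by BMP Smads, or of CAGAC, a Smad box, searched on both strands. No marked motifs overlap.
Inhba, chr13:16011601-16011850, plus strand: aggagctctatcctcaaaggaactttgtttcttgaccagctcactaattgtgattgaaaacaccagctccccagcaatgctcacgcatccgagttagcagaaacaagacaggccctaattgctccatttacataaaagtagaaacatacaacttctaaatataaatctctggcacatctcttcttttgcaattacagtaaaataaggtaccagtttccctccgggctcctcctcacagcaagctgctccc
Inhbb, chr1:119422249-119422498, minus strand: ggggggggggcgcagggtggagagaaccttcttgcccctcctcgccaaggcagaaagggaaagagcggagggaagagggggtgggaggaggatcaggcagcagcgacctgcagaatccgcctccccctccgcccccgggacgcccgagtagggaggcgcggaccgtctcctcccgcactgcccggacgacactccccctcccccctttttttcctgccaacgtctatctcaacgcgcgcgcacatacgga
Grem1, chr2:113758649-113758898, minus strand: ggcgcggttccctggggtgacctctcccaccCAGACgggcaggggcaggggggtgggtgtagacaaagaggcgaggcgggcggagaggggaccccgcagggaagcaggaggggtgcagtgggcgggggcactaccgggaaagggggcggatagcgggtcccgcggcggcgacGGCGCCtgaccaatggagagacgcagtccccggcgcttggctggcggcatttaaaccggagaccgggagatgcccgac
The Inhba window had a GC content of 43.2% and the Inhbb window 68%, on either side of the median of 52.4% over 32851 such windows, and neither holds the searched letters. The Grem1 window, at 72% GC, holds 1 GGCGCC and 1 CAGAC. Over all windows, 9.59% hold GGCGCC and 42.2% hold CAGAC or its reverse complement GTCTG. A match is a description of the letters only.

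The latent TGF-beta binding protein genes, whose products tether latent TGF-beta to fibrillin-rich matrix, were led by Ltbp1. Ltbp1 had 34.8 FPKM in B6-Xi against 40.2 FPKM in PWK-Xi. Ltbp2, a family member known not to bind latent TGF-beta, had 16.9 and 28.4 FPKM. Ltbp3 had 5.09 and 6.27 FPKM, and Ltbp4 stayed at 0.844 and 0.802 FPKM. The order Ltbp1, Ltbp2, Ltbp3, Ltbp4 was the same in both lines, and none was 2-fold apart.

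Secreted antagonists were the second most abundant group. Grem1, which encodes gremlin, a trap for BMP2, BMP4 and BMP7, had nearly equal totals of 175 FPKM in B6-Xi against 178 FPKM in PWK-Xi. Fstl1, a secreted follistatin-like glycoprotein gene, had 56.5 and 100.6 FPKM, a log2 difference of 0.82. Fst, which encodes the activin antagonist follistatin, had 3.41 FPKM in B6-Xi against 10.5 FPKM in PWK-Xi. That made it 3.08-fold higher in PWK-Xi, where alone it reached 5 FPKM, which fixed its direction. Fstl3, another activin-binding antagonist gene, was close at 3.32 and 3.70 FPKM. Nog, which encodes the BMP antagonist noggin, was listed at 0 in B6-Xi but at 0.116 FPKM in PWK-Xi.

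All 8 receptor genes that reached 1 FPKM in a line had a higher total in PWK-Xi, where 63.6% of all such genes were higher. Acvr2b and Tgfbr1 reached it in PWK-Xi alone, which fixed their direction, and the log2 difference of Acvr1 turned to -0.06 when centred as above. The summed level of the 12 receptor genes was 35.6 FPKM in B6-Xi against 83.8 FPKM in PWK-Xi. Tgfbr3, which encodes the co-receptor betaglycan, contributed 8.22 FPKM in B6-Xi against 33.3 FPKM in PWK-Xi, a 4.05-fold difference (log2 difference 1.90). Betaglycan presents TGF-beta to the type II receptor and also binds inhibin. Both Tgfbr3 alleles moved alike, from 2.84 to 11.7 FPKM for B6 and from 5.38 to 21.6 FPKM for PWK.

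Of the signaling TGF-beta receptors, the type II gene Tgfbr2 had 9.32 FPKM in B6-Xi against 12.0 FPKM in PWK-Xi. The type I gene Tgfbr1 had 0.932 and 4.02 FPKM, under the 5 FPKM minimum in both lines. For BMP, the type II gene Bmpr2 had 4.73 and 11.1 FPKM (log2 difference 1.07). The type I gene Bmpr1a had 5.40 and 11.5 FPKM (log2 difference 0.96), just short of 2-fold on this scale. Bmpr2 lost its 2-fold call when differences were centred as above (log2 difference 0.88). Bmpr1a and Bmpr2 thus had similar totals within each line.

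Activin receptor genes stayed near or under 5 FPKM. Acvr2a, a type II receptor gene, had 3.48 FPKM in B6-Xi against 5.05 FPKM in PWK-Xi. Acvr1, which encodes the type I receptor ALK2, had 3.21 and 3.63 FPKM. Acvr2b, the other type II gene, had 0.328 and 2.34 FPKM. The type I gene Acvr1b, the main activin type I receptor gene, was listed at 0 in B6-Xi but at 0.126 FPKM in PWK-Xi. Bmpr1b was at 0 and 0.798 FPKM. Acvrl1, an endothelial TGF-beta and BMP receptor gene, was listed at 0 in both lines.

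All 8 Smad genes exceeded 1 FPKM in both lines, none was 2-fold apart among the 3 with at least 5 FPKM, and their summed level was 31.6 FPKM in B6-Xi against 40.7 FPKM in PWK-Xi. Smad4, the partner shared by both branches, was the highest, with 9.20 and 10.6 FPKM. Smad1 of the BMP branch followed with 6.75 and 9.31 FPKM, well above Smad5 (1.32 and 1.12 FPKM) and Smad9 (1.61 and 2.00 FPKM). In the TGF-beta and activin branch, Smad2 had 2.80 and 4.28 FPKM and Smad3 had 4.36 and 3.95 FPKM. These had opposite order in the lines, with Smad3 above Smad2 in B6-Xi and below it in PWK-Xi. The inhibitory Smads, which damp signaling and are themselves induced by it, were Smad6 at 1.83 and 3.19 FPKM and Smad7 at 3.71 and 6.23 FPKM.

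The Id genes, which encode helix-loop-helix proteins that block E-protein transcription factors, differed in a gene by gene way although their sum was similar. Id1 to Id4 summed to 421 FPKM in B6-Xi against 403 FPKM in PWK-Xi. Id3 had 304 FPKM in B6-Xi against 181 FPKM in PWK-Xi, 1.68-fold lower in PWK-Xi (log2 difference -0.75). Id2 had 49.2 and 125 FPKM, 2.53-fold higher in PWK-Xi (log2 difference 1.32). Id1 had 67.9 and 97.3 FPKM (log2 difference 0.51). Id3 was the highest of the 3 in both lines, while Id1 exceeded Id2 in B6-Xi and Id2 exceeded Id1 in PWK-Xi. Id4 was listed at 0 in both.

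Another 5 members carry the name of the pathway and are no ligand, receptor or Smad. Bmp1, which encodes a procollagen C-proteinase, had 5.22 FPKM in B6-Xi against 11.2 FPKM in PWK-Xi (log2 difference 0.97). Bmp2k, a BMP2-inducible kinase gene, had 1.32 and 5.25 FPKM (log2 difference 1.43). Tgfb1i1, which encodes the focal adhesion adaptor Hic-5, had 17.6 and 15.2 FPKM. Tgfbi, a TGF-beta-induced matrix protein gene, had 3.70 and 2.03 FPKM, and Tgfbrap1, a receptor-associated protein gene, had 1.49 and 2.098 FPKM.

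The allele columns showed where the differences lay. In 16 of the 22 members both alleles were higher in PWK-Xi (72.7%, against 39.7% of all genes; 10 of 16, or 62.5%, against 33% with 5 FPKM in both lines), and in 2, Id3 and Inhba, both were lower (9.09%, against 20.7%). The 16 include the 6 members that reached 5 FPKM in PWK-Xi alone. Both the 16 and the 10 include Id2 and Ltbp2. Their B6 allele was listed at 0 in B6-Xi, so it could not be lower in PWK-Xi. In Smad1 and Tgfb1i1 the B6 allele was higher and the PWK allele lower, and in Grem1 and Id1 the reverse. For Id3, the B6 and PWK alleles went from 148 and 155 FPKM in B6-Xi to 97.9 and 82.7 FPKM in PWK-Xi. The allele sum hid opposite movements in Grem1, whose B6 allele went from 127 to 115 FPKM and whose PWK allele went from 47.9 to 62.7 FPKM.

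The difference of Id2 was almost wholly one of the B6 allele. In B6-Xi its B6 allele was listed at 0 and its PWK allele had 49.2 FPKM. In PWK-Xi they had 72.2 and 52.4 FPKM. Of the total difference of 75.5 FPKM, the B6 allele held 72.2 FPKM and the PWK allele 3.24 FPKM. On the PWK allele alone the log2 difference of Id2 was 0.09. In Id1 the PWK allele held the larger difference, but both alleles moved. Its B6 allele had 58.7 FPKM in B6-Xi against 45.7 FPKM in PWK-Xi. Its PWK allele had 9.27 against 51.6 FPKM, a 5.57-fold difference.

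**Figure D2:**
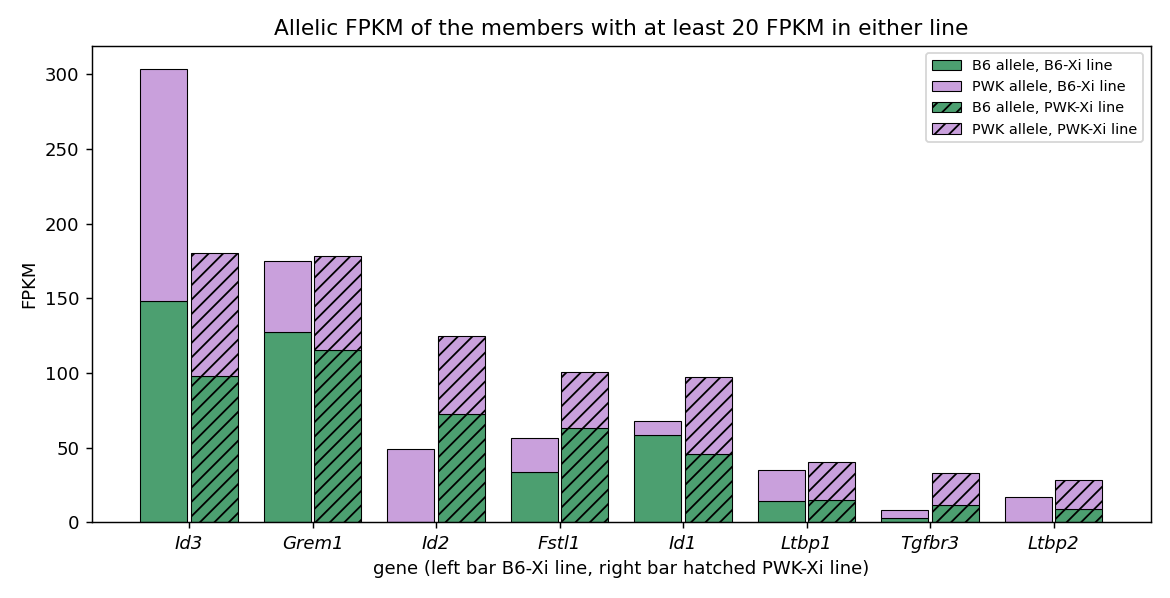
FPKM of the B6 allele (green) and the PWK allele (violet), stacked, for the 8 members with at least 20 FPKM in either line; the plain bar is B6-Xi and the hatched bar PWK-Xi, 1 library each. Id2 and Ltbp2 have no B6 part in B6-Xi, and the PWK part of Id1 goes from 9.27 to 51.6 FPKM.

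Id2 shares chromosome 12 with Ltbp2 and Tgfb3, and all 3 were listed at 0 for the B6 allele in B6-Xi. The median B6 share of the 239 genes of chromosome 12 with at least 1 FPKM was 0% in that line, so these members followed their chromosome there. In PWK-Xi the median was 52.9% over 318 genes, and Id2 had 57.9%. Ltbp2 and Tgfb3 lay lower in PWK-Xi, at 30.1% and 27.1%. The 10 nearest measured genes on each side of them had medians of 53.1% and 53.7%. The PWK allele of Ltbp2 had 16.9 FPKM in B6-Xi against 19.9 FPKM in PWK-Xi, and that of Tgfb3 had 2.77 and 2.60 FPKM. With the B6 allele at 8.56 FPKM for Ltbp2 and 0.965 FPKM for Tgfb3 in PWK-Xi, most of the difference in total lay in the B6 allele here as well. The PWK alleles of all 3 genes were within 1.18-fold of each other between the lines. Tgfbr1 on chromosome 4 was also listed at 0 for B6 in B6-Xi, where the median B6 share of its 10 nearest measured genes on each side was 0%. Its PWK allele had 0.932 FPKM in B6-Xi against 1.86 FPKM in PWK-Xi, and its B6 allele had 2.15 FPKM in PWK-Xi.

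**Figure D3:**
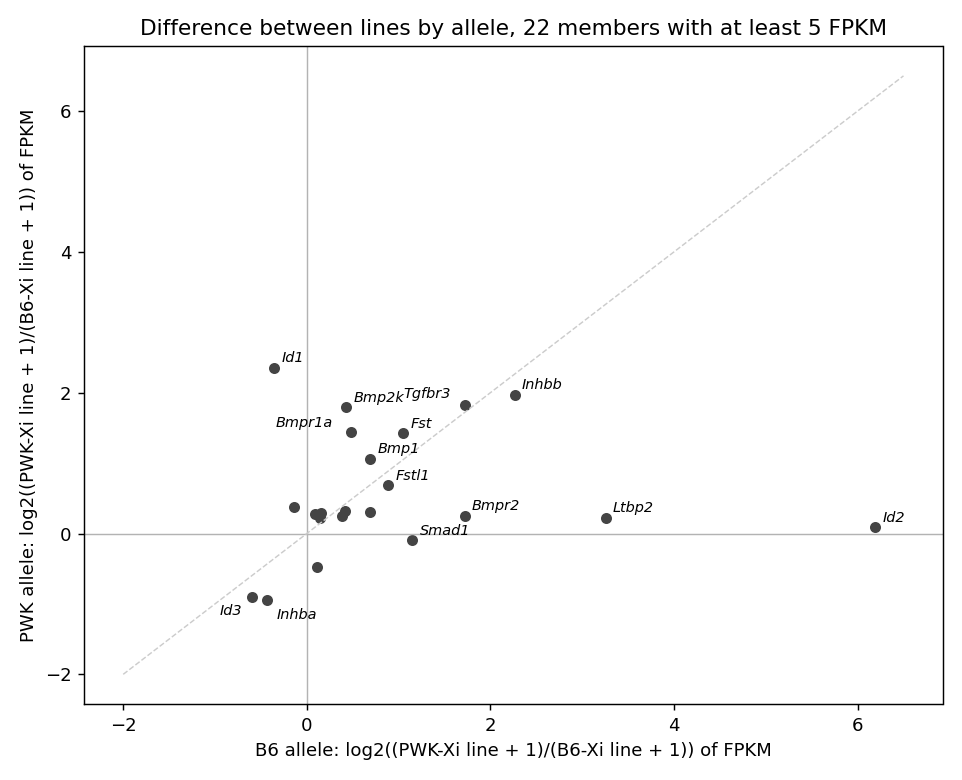
Difference between the lines of the PWK allele (vertical) against that of the B6 allele (horizontal), each as log2((PWK-Xi + 1)/(B6-Xi + 1)) of FPKM, 1 point for each of 22 members. Id2 and Ltbp2 lie far to the right with PWK differences of 0.09 and 0.22. Bmpr2 has a B6 difference of 1.72 and a PWK difference of 0.25. Id1 stands high on the left, and Tgfbr3 and Inhbb lie near the dashed line of equal differences.

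Over the whole family the median B6 share was close to that of all genes, while single members spread widely. The median B6 share was 52.8% over 32 members in B6-Xi and 52.9% over 34 members in PWK-Xi, against 50% and 52.8% of all autosomal genes with at least 1 FPKM. A B6 share of at most 10% occurred in 4 members in B6-Xi (12.5%, against 9.09% of autosomal genes), namely Id2, Ltbp2, Tgfb3 and Fstl3, and in 0 in PWK-Xi (against 1.62%). A share of at least 90% occurred in 0 members in B6-Xi (against 5.41%) and in 1 in PWK-Xi (2.94%, against 3.29%), Acvr2b. Off the chromosomes whose median departed by more than 5 points, 0 of 21 members in B6-Xi had a share of at most 10%. No share over all genes stands beside that count.

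Between the lines the B6 share was at least 20 points higher in PWK-Xi for 7 of 32 members (21.9%, against 21.1% of autosomal genes) and at least 20 points lower for 4 (12.5%, against 13.5%). Both counts were close to the background. The B6 share lay on opposite sides of 50% in the lines, at least 20 points apart, for 6 members (18.8%, against 22.8%). Higher were Fstl3, Id2, Bmpr2, Acvr1, Ltbp2, Tgfb3 and Smad1, and lower were Bmp2k, Id1, Bmpr1a and Tgfbrap1. With a minimum of 5 FPKM the counts were 3 and 2 of 16 members. Relative to the neighbouring genes, they were 3 and 8 of 32. No share over all genes stands beside these counts, so no lean of the family is read from them.

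Members were also set against 10 measured neighbours on each side, and their median distance from them was close to that of other genes. The distance was 11.5 points in B6-Xi and 8.15 points in PWK-Xi, against 10.4 and 7.65 points over all autosomal genes. At least 20 points away lay 11 of 32 members in B6-Xi (34.4%, against 26.8%) and 5 of 34 in PWK-Xi (14.7%, against 15.9%). Fstl1 and Acvr1 did so in both lines. Fstl1 on chromosome 16 had a B6 share of 59.5% in B6-Xi and 62.7% in PWK-Xi, where its neighbours had 38.03% and 40.4%. Its share was thus 21.5 and 22.3 points above that of its neighbours, at 56.5 FPKM or more in each line. Acvr1 departed in opposite directions, with 42.9% against neighbours at 63.4% in B6-Xi and 74.6% against 47.7% in PWK-Xi.

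**Figure D4:**
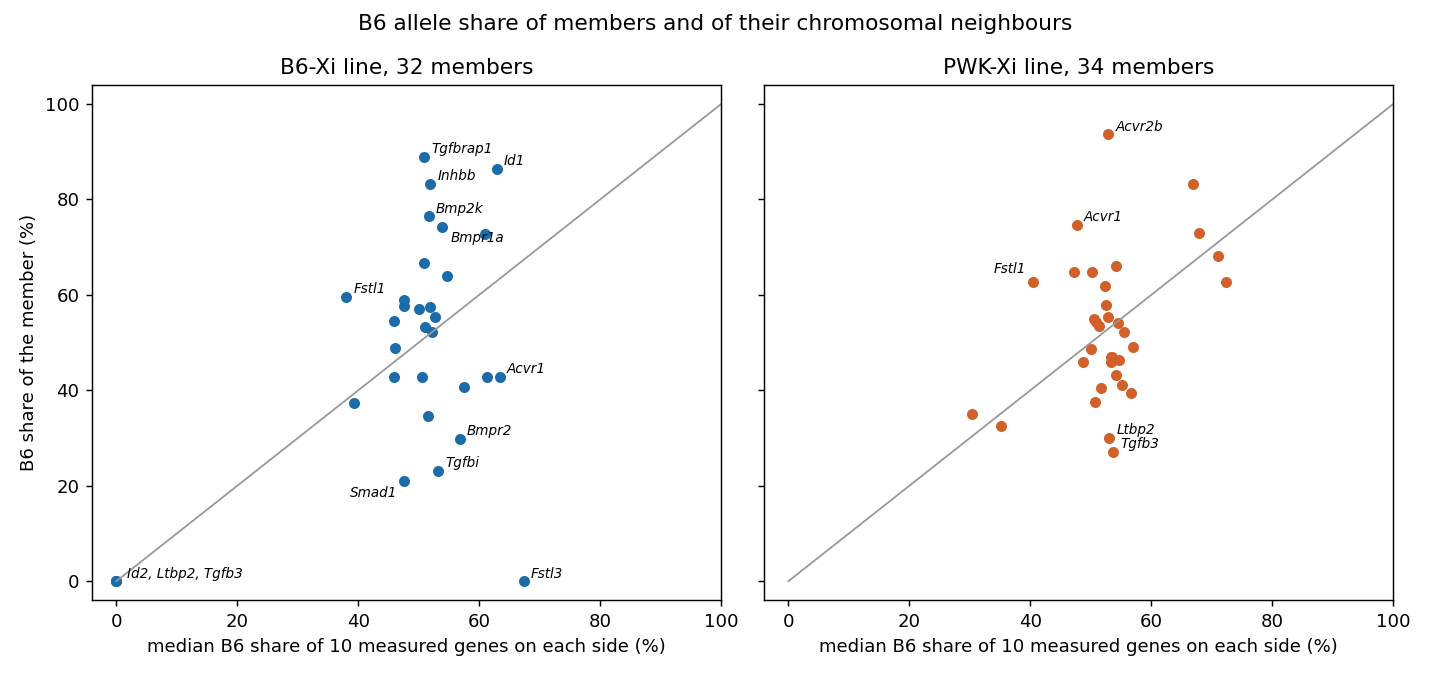
B6 share of each member (vertical, percent) against the median of 10 measured genes on each side of it (horizontal, percent), in B6-Xi (left, 32 members) and PWK-Xi (right, 34 members); the line marks equality and members at least 20 points off are named. Id2, Ltbp2 and Tgfb3 share the origin in B6-Xi, and Fstl1 lies above the line in both lines.

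Some other members lay on chromosomes whose median leaned in 1 line, and their own shares did not all follow it. Chromosome 2 had a median B6 share of 60.8% in B6-Xi and 52.8% in PWK-Xi. On it, Grem1 had 72.7% and 64.8%, against neighbours at 60.9% and 47.2%. Id1 had 86.4% and 47.0%, against neighbours at 62.9% and 53.4%. Chromosome 1 had 51.3% and 70.3%, so it leaned in PWK-Xi alone. Its member Inhbb had 83.3% and 72.9%, against neighbours at 51.9% and 67.9%. Bmpr2, also on chromosome 1, had 29.8% in B6-Xi and 62.6% in PWK-Xi, against neighbours at 56.8% and 72.4%. On chromosome 5, with medians of 51.0% and 36.4%, Tgfbr3 had 34.5% and 35.0%. The PWK allele of Tgfbr3 was thus the higher one in both lines. Ltbp1 leaned to PWK in both as well, on chromosome 17, whose median leaned in neither line (52.5% and 54.3%). Its B6 shares were 40.6% and 37.5%, below its neighbours at 57.5% and 50.7%.

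Shares moved in coarse steps in B6-Xi. Of 32 members there, 12 had a B6 share within 0.001 points of a simple fraction, meaning one whose denominator is 10 or less (37.5%, against 45.4% of autosomal genes), and in PWK-Xi 2 of 34 did (5.88%, against 10.3%). In B6-Xi, Acvr1, Acvr2a, Smad3 and Tgfb1i1 had the same share of 42.9%, and Inhbb, at 83.3%, was also among the 12. Shares of these members in B6-Xi are therefore known only coarsely.

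The wider pathway was read from lists of genes mostly outside the symbol rule, a few of which stand on more than 1 list. The TGF-beta target genes did not move as a block. Of the 21 that reached 5 FPKM in a line, 6 were at least 2-fold higher in PWK-Xi (28.6%, against 17.8% of all genes), 4 at least 2-fold lower (19%, against 5.83%) and 11 within 2-fold, with a median log2 difference of 0.22, beside 0.23 over all genes. Of the 6, 5 reached 5 FPKM in PWK-Xi alone, and of the 4, 2 did so in B6-Xi alone. Acta2, smooth muscle actin, had 366 FPKM in B6-Xi against 15.0 FPKM in PWK-Xi, and Cnn1, calponin, had 7.93 and 0.293 FPKM. On the higher side, the matrix glycoprotein gene Tnc had 4.50 and 119.9 FPKM, with a B6 share of 0% in B6-Xi. Cdkn2b, a cell cycle inhibitor gene, was listed at 0 in B6-Xi but at 14.7 FPKM in PWK-Xi. The abundant targets Cdkn1a (187 and 134 FPKM) and Col1a2 (134 and 69.2 FPKM) were within 2-fold.

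Intracellular regulators of Smads were at least 2-fold higher in PWK-Xi for 4 of 13 genes (30.8%, against 17.8% of all genes) and lower for 0 (against 5.83%), with a median log2 difference of 0.82, beside 0.23 over all genes. Of the 4, 2 reached 5 FPKM in PWK-Xi alone. The most abundant, Fkbp1a, whose product FKBP12 binds type I receptors, had 157 FPKM in B6-Xi against 124 FPKM in PWK-Xi, and Strap, a receptor-associated protein gene, had 37.7 and 36.6 FPKM. The ubiquitin ligase gene Stub1 was listed at 0 in B6-Xi but at 66.7 FPKM in PWK-Xi, and through the pseudocount it counts among the 4. Among 13 genes for the latent complex, its activation and processing, 3 were 2-fold higher (23.1%) and 2 lower (15.4%), against the same 17.8% and 5.83% of all genes, with a median log2 difference of 0.06. Of the 3, 1 reached 5 FPKM in PWK-Xi alone, and of the 2, 1 did so in B6-Xi alone, which fixed their direction. Bgn, the X-linked biglycan gene, had 665 and 483 FPKM. Dcn, which encodes the TGF-beta-binding proteoglycan decorin, had 79.1 and 456 FPKM. Thbs1, which encodes the latent TGF-beta activator thrombospondin-1, had 126 and 51.8 FPKM, and the protease gene Mmp9 had 6.57 and 0.470 FPKM.

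Other extracellular antagonists were also read. Nbl1, a BMP antagonist gene, had 8.34 FPKM in B6-Xi against 19.8 FPKM in PWK-Xi, and the protease gene Htra1 had 13.6 and 19.3 FPKM. Among 4 co-receptors and decoys, 2 were 2-fold higher (50%, against 17.8% of all genes) and 0 were lower (against 5.83%). Neo1, 1 of these 2 and chosen after its values were seen, had 1.69 and 6.81 FPKM and so reached 5 FPKM in PWK-Xi alone. Nrp2 had 16.8 and 42.2 FPKM, Nrp1 had 6.20 and 9.33 FPKM, and Cd109, a TGF-beta co-receptor gene, had 5.21 and 4.29 FPKM.

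Of the other ligands of the superfamily, 2 of 16 reached 5 FPKM, both in PWK-Xi alone, so no direction is read from their count. Gdf10 had 0.788 FPKM in B6-Xi against 15.6 FPKM in PWK-Xi. Gdf15, a stress-induced ligand gene, was listed at 0 and had 7.09 FPKM, all of it from B6. Lefty1, a Nodal antagonist gene, had 4.08 and 1.13 FPKM, with a B6 share of 100% in both lines. The BMP target list holds Id1, Id2, Id3, Smad6 and Smad7, which are members, so it is no separate evidence. Of its 6 genes with at least 5 FPKM, 2 were 2-fold higher in PWK-Xi (33.3%, against 17.8% of all genes) and 0 were lower (against 5.83%), with a median log2 difference of 0.57, beside 0.23 over all genes.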

How the data were processed

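PolyA RNA of 2 immortal fibroblast lines was read with Smart-seq2, 1 library each, and groups were taken from the sample titles. Per the submitters' processing notes, StringTie 2.1.1, HISAT2 2.2.0 and Trim Galore 0.6.4 were used with mm9. The sources used here do not state how reads were assigned to alleles. FPKM values were deposited by the authors per gene and allele, per the file headers. These are not counts, so the absolute read depth is unknown and counting intervals could not be computed.

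Totals, B6 shares, log2 differences with a pseudocount of 1 and medians of 10 genes on each side were computed with pandas 2.3.3 and numpy 2.4.6 in Python 3.11.15, plotted with matplotlib 3.10.9, and tested on simulated data. Differences needed 5 FPKM in either line and shares needed 1 FPKM. Gene order came from GENCODE and RefSeq on GRCm38, matched by symbol or synonym for all but 95 genes, with no conversion of coordinates. Members and lists were chosen with earlier results of these data known. Named were all members, the 3 most abundant genes of each list and those 4-fold apart at 5 FPKM or more, except 1 list gene that is not reported here. Alternatives varied the pseudocount, filters, scaling, allele, share thresholds and number of neighbours.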

Additional observations from a re-analysis of the deposited data

Results flagged for a closer look

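Of the members that reached 1 FPKM in both lines, 6 had more B6 than PWK in 1 line and more PWK than B6 in the other, with shares at least 20 points apart (18.8% of 32, against 22.8% of autosomal genes). Each line is 1 library, so these differences were not tested. The change in B6 share from B6-Xi to PWK-Xi was 83.3 points for Fstl3 (0% of 3.32 FPKM and 83.3% of 3.70 FPKM). It was 57.9 points for Id2 on chromosome 12, 32.8 points for Bmpr2 and 31.8 points for Acvr1. In the other direction the change was -44.1 points for Bmp2k (76.5% and 32.4%) and -39.4 points for Id1. Fstl3 lies on chromosome 10, where its neighbours had a median B6 share of 67.4% in B6-Xi, so its 0% went against its surroundings. Its share was a simple fraction in both lines and its total stayed under 5 FPKM, so both shares are known only coarsely.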

How the results depend on the processing

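No paired analysis was possible because each group has 1 library, and no replicate could be left out. The number of members at least 2-fold higher in PWK-Xi (6) lay between 4 and 8 under all alternatives except a pseudocount of 5, which gave 3, and a minimum of 5 FPKM in both lines, which gave 2. No alternative gave a member 2-fold or 4-fold lower. The number at least 4-fold higher (1) was 2 with a pseudocount of 0.1 and with libraries scaled to the same sum, 0 with a pseudocount of 5 and with 5 FPKM in both lines, and 3 on the B6 allele alone. Except at 2-fold with 5 FPKM in both lines, no share over all genes stands beside these alternative counts of 2-fold and 4-fold members. No lean of the family is read from them. The median log2 difference of members (0.57) was 0.63 and 0.43 with pseudocounts of 0.1 and 5, 0.42 with a minimum of 1 FPKM, 0.33 with no filter, 0.51 with a mean of 5 FPKM over the lines, 0.37 with 5 FPKM in both, 0.37 centred (a shift of 0.19), 0.71 scaled to the same sum, 0.59 on the B6 allele and 0.26 on the PWK allele. Shares at least 20 points higher in PWK-Xi (7) numbered 3 at 5 FPKM, 1 off chromosomes with a shifted median and 3 relative to neighbours. Those at least 20 points lower (4) numbered 2, 1 and 8 under the same settings and 2 at a threshold of 30 points. Shares of at most 10% in B6-Xi (4) numbered 2 at 5 FPKM, 0 off chromosomes with a shifted median and 1 relative to neighbours. The 1 share of at least 90% in PWK-Xi became 0 at 5 FPKM and at 95%. No share over all genes stands beside these alternative counts of shares, so no lean of the family is read from them. The median distance from neighbours was 13.7 and 11.4 points in B6-Xi with 5 and 20 genes on each side, and 10.0 points in PWK-Xi with 5. The filters on the mean and on both lines were chosen after seeing the data. Of 56 single-member values of the 6 members 2-fold apart, 0 changed sign and 5 dropped under 2-fold. Settings that change only the filter leave the log2 difference of a member as it was, so those values could not change. A member that failed a filter gave no value there, so this tally is no measure of stability. Apart from the changes that follow from fewer members tested, the cause was not tested.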
